A study of Mus musculus with 2 samples.

Results

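The major urinary protein (Mup) genes measured here were the 10 genes Mup3, Mup7, Mup9, Mup10, Mup11, Mup12, Mup14, Mup17, Mup20 and Mup21, taken by gene symbol from the 32285 genes of each count table. All 10 stood in both tables, and 12 further genes with a Mup symbol served for comparison. The list was chosen by the levels of these genes in the same 2 sections, which were known from earlier results, so the levels below describe the sections and nothing was tested on them. All 10 had at least 200 unique molecular identifiers (UMIs) over both sections, the minimum used for every count over genes.

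The data were 10x Visium spatial transcriptomics of frozen mouse liver, an assay that captures RNA on barcoded spots printed under a tissue section and counts every molecule by its UMI. One section of 10 µm came from 1 NCD mouse and one from 1 HFD mouse. The animals were male C57BL/6J mice bought at 5 weeks of age. The HFD mouse had received a 60% high-fat diet, which induces non-alcoholic fatty liver disease in this strain, and the NCD mouse the control diet, for 14 weeks and then through 8 weeks of oral distilled water that both groups were given. Each diet was thus represented by a single animal. The diet cannot be told apart from the animal, the section or the field of barcoded spots under it (capture area). Whether the capture areas shared a slide is not given. No test was therefore possible, and the 95% intervals, which are exact, hold counting error alone.

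MUPs are small lipocalins with a barrel-shaped pocket that holds pheromones and other hydrophobic molecules. Hepatocytes secrete them into the blood, from which the kidney passes them into the urine, where they serve as scent signals between mice. In the liver their genes are known for a strong male bias that depends on pulses of growth hormone acting through STAT5, and Mup1 is known to be low in the liver and serum of obese mice. Mup20 encodes darcin, the male pheromone that attracts females, and Mup3 is one of the genes with which hepatocytes are commonly recognised.

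The tables held 29037988 UMIs in 3692 NCD spots over tissue and 72118803 UMIs in 3594 HFD spots, with medians of 4187.5 and 18549 UMIs per spot. The labels gave the cell line as a hematopoietic stem cell beside the tissue liver, and the counts were those of liver. The study's 5 hepatocyte markers, among them Mup3 itself and albumin (Alb), summed to 82801 counts per 1000000 UMIs (CPM) in NCD and 75919 CPM in HFD. The sum of 3 T cell markers was 8.16 CPM and 5.77 CPM, and the leukocyte gene Ptprc stood at 6.61 CPM and 10.7 CPM. Transcripts of the Y chromosome were present in both sections at like levels. Ddx3y stood at 27.3 CPM in NCD and 25.3 in HFD, and Xist, the RNA of the inactive X chromosome in females, had 1 and 2 UMIs. These sex chromosome genes were chosen after the values of the Mup genes had been seen. On the NCD capture area, 19.1% of the UMIs lay in spots off tissue, against 2.93% on the HFD capture area.

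All 22 Mup genes of the tables lay in a span of 2194060 bases on chromosome 4 (chr4:59956804-62150863, build GRCm38, GENCODE M21), and 21 of them were on the minus strand. Mup7, Mup9, Mup10, Mup11, Mup12, Mup14 and Mup17 lay among close copies in the first stretch of that span. Mup20, Mup3 and Mup21 lay together at its end, after a gap of 215000 bases that follows Mup5. The sequences differed along the same line except for Mup20, which was closer to the genes of the first stretch than to its neighbours. Coding sequences of the 7 genes in the first stretch were 98.3% to 99.6% identical over their 21 pairs, and they were 82.3% to 91.3% identical to those of Mup20, Mup3 and Mup21. Mup3 and Mup21 were 94.7% identical to each other. The stretch below shows genes from both parts of the span. It holds coding bases 121 to 180 counted on Mup7, from GENCODE M21 transcripts on GRCm38, minus strand, 5′ to 3′, and capitals mark the bases that differ from Mup7.
Mup7 (chr4:60069783-60069842): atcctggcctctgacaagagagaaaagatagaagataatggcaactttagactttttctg
Mup9 (chr4:60421369-60421428): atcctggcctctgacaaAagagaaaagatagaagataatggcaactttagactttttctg
Mup17 (chr4:61595243-61595302): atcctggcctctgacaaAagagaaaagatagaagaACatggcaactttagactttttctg
Mup20 (chr4:62053530-62053589): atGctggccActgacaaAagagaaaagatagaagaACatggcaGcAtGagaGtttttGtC
Mup3 (chr4:62086850-62086909): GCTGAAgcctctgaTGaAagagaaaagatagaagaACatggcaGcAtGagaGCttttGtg
Mup21 (chr4:62150245-62150304): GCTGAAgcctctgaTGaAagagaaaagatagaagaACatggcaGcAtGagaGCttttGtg

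Mup10, Mup11, Mup12 and Mup14 carried the same letters as Mup9 in this stretch. Mup3 and Mup21 each differed from Mup7 at 17 bases, Mup20 at 11 and Mup17 at 3.

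Such likeness bears on every count below, because a read that fits several genes is assigned to none of them. Of all 90-base windows in the last 500 bases of the transcript, where the assay reads, 100% occurred in no other gene for Mup3 and for Mup20, and 91.2% for Mup21. The share was 65.2% for Mup17, 31.1% for Mup11, 25.3% for Mup9, 12.2% for Mup12 and 0.487% for Mup7. It was 0% for Mup10 and Mup14, whose own windows lay farther from the end or in other isoforms and made up 14.4% and 17.3% of the windows of all their protein-coding transcripts. The windows shared by these genes were shared with Mup genes and with no gene outside the family. The levels of the 7 close copies are therefore uncertain between neighbouring copies and count a part of their reads only. Their sum is given beside each of them, a grouping by place on the chromosome that was made after the values had been seen.

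The summed family made up 21454 CPM (21401 to 21507) in NCD and 15550 CPM (15521 to 15579) in HFD, a log2 ratio of HFD over NCD of -0.46 (-0.47 to -0.46). In plain terms, 2.15% of all UMIs of the NCD section and 1.55% of those of the HFD section came from these 10 genes. The sum held members that differed by far more and in both directions. Of the 10 members, 8 were at least 2-fold lower in HFD, against 1.84% of the 10665 genes with at least 200 UMIs. The members' median log2 ratio was -3.05, beside a median of 0.23 over all those genes. That contrast was known when the members were listed, and the values are printed side by side as a description.

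Mup20, the gene of darcin, was the member at a higher level in HFD. It stood at 6542 CPM (6512 to 6571) in NCD and 11370 CPM (11345 to 11394) in HFD, 1.74-fold higher, with a log2 ratio of 0.80 (0.79 to 0.80). Its ratio took place 9115 of 10665 genes from the lowest. Of all these genes, 23.9% were at least 1.5-fold and 9.3% at least 2-fold higher in HFD. Mup20 was detected in 94.3% of NCD spots and 99.97% of HFD spots, shares that grow with depth.

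Mup3 stood at 10471 CPM (10434 to 10508) in NCD and 3946 CPM (3931 to 3960) in HFD, 2.65-fold lower. Together with Mup20 it held most of the family's UMIs in both sections. The ratio of Mup20 to Mup3 was 0.625 UMIs (0.621 to 0.628) of Mup20 for each UMI of Mup3 in NCD and 2.88 (2.87 to 2.89) in HFD, so the order of these genes was turned between the sections.

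Mup21, the neighbour of Mup3, was the member with the smallest difference. Its level was 68.3 CPM (65.3 to 71.3) in NCD and 58.8 CPM (57.0 to 60.6) in HFD, a log2 ratio of -0.22 (-0.29 to -0.14). With the mean of the spots off tissue subtracted the ratio was -0.98. Mup3 and Mup21 thus lay next to each other and had the closest coding sequences of the genes at this end of the span, with ratios of -1.41 and -0.22.

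The 7 close copies were all lower in HFD, by 6.75-fold to 164-fold. Summed, they stood at 4373 CPM (4349 to 4397) in NCD and 175 CPM (172 to 178) in HFD, 24.9-fold lower, with a log2 ratio of -4.64 (-4.67 to -4.61). With the mean of the spots off tissue subtracted the folds were larger, from 11.8-fold for Mup10 to 272-fold for Mup7, and the sum was 40.6-fold lower. The largest difference was that of Mup7, with 43787 UMIs in NCD and 664 in HFD, or 1508 CPM and 9.21 CPM. Its log2 ratio of -7.36 (-7.47 to -7.25) was number 3 from the lowest of all 10665 genes. Mup9 followed with 552 CPM in NCD and 8.19 CPM in HFD, 67.4-fold lower, and Mup11 with 1137 CPM and 20.6 CPM, 55.2-fold lower. These took places 7 and 8 from the lowest.

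Mup14 and Mup12 were lower by an intermediate factor. Mup14 stood at 302 CPM in NCD and 19.9 CPM in HFD, 15.2-fold lower, and Mup12 at 207 CPM and 21.5 CPM, 9.63-fold lower. The smallest differences among the close copies were those of Mup10, with 350 CPM in NCD and 49.1 CPM in HFD, 7.13-fold lower, and of Mup17, with 316 CPM and 46.9 CPM, 6.75-fold lower. With the off-tissue mean subtracted, Mup10 was 11.8-fold and Mup17 12.3-fold lower. Mup17 was the copy with the largest share of windows of its own.

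**Figure D1:**
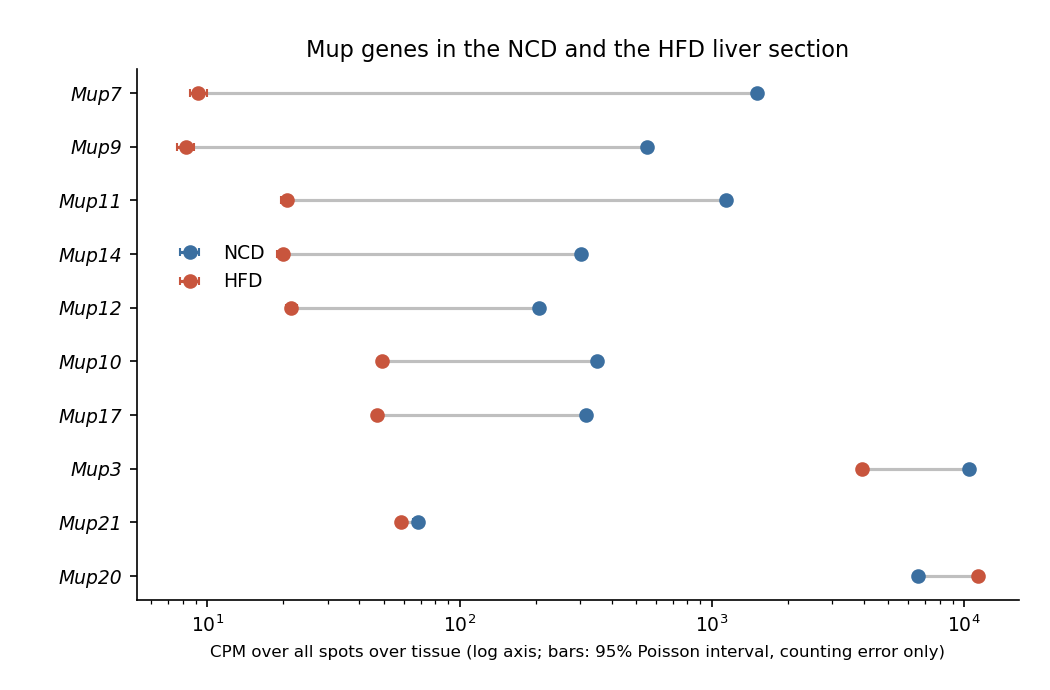
Level of each Mup gene in the NCD section (blue) and the HFD section (red), in CPM on a log axis, with 95% Poisson intervals that are mostly smaller than the points; each point is 1 section. The lines for Mup7, Mup9 and Mup11 are the longest, Mup21 has points close together, and Mup20 is the gene whose HFD point lies to the right.

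In this way the make-up of the family differed between the sections. In NCD, Mup3 held 48.8% of the family's UMIs, Mup20 30.5% and the 7 close copies 20.4%. In HFD, Mup20 held 73.1%, Mup3 25.4% and the 7 close copies 1.13%. Mup21 held 0.318% in NCD and 0.378% in HFD. Since shared reads were left out, the share of the close copies is that of their assigned UMIs and not of their transcripts.

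**Figure D2:**
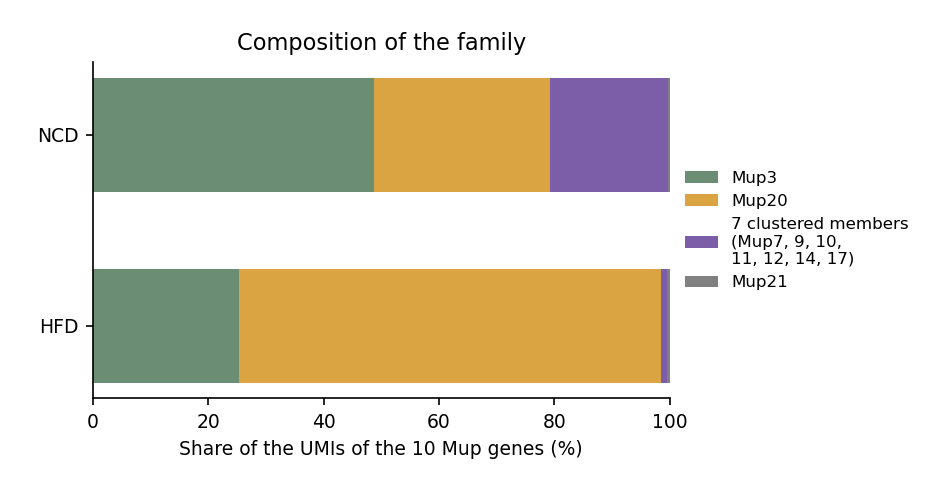
Share of the UMIs of the 10 Mup genes held by Mup3, Mup20, the 7 close copies in the first stretch of the cluster and Mup21, in percent, for each section. Mup3 is the largest part in NCD with 48.8% and Mup20 in HFD with 73.1%, and the part of the 7 close copies is 20.4% in NCD and 1.13% in HFD.

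The Mup genes outside the list with enough counts were also lower in HFD. Mup1 stood at 117 CPM in NCD and 15.8 CPM in HFD, a log2 ratio of -2.89, and Mup16 at 127 CPM and 37.6 CPM, a log2 ratio of -1.76. Mup18 stood at 9.64 CPM and 4.85 CPM, a log2 ratio of -0.99. Mup19 had 59 UMIs in NCD and 0 in HFD, which is at least 48.8-fold lower when 3 counts over the HFD section are taken as the floor. The other 8 Mup genes, Mup2, Mup4, Mup5, Mup6, Mup8, Mup13, Mup15 and Mup22, had 1 to 94 UMIs in NCD. The genes that flank the cluster had ratios nearer 0. Of the 10 nearest annotated genes, 5 on each side, 7 had at least 200 UMIs, and their log2 ratios ran from -0.13 for Cdc26 to 0.70 for Slc31a2.

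**Figure D3:**
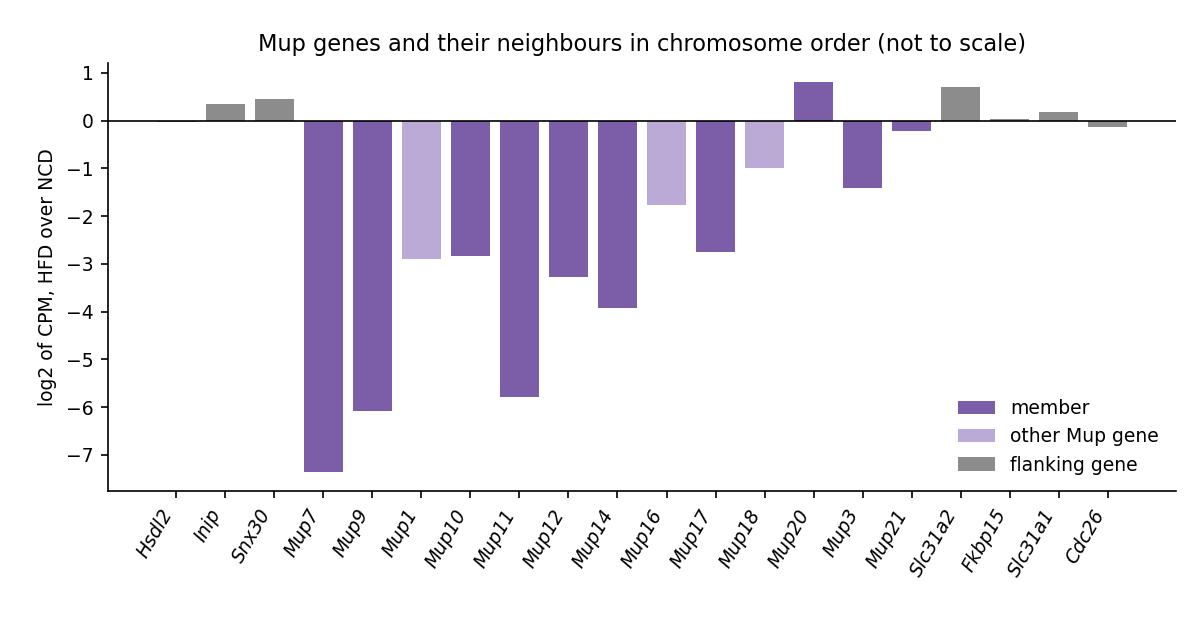
Log2 ratio of HFD over NCD for the Mup genes and flanking genes with at least 200 UMIs, drawn in their order on chromosome 4 and not to scale; each bar compares 1 section with 1 section. Bars of the Mup genes in the first stretch point down, from -0.99 for Mup18 to -7.36 for Mup7, while Mup20 stands at 0.80 and the flanking genes lie between -0.13 and 0.70.

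Promoters were compared where the RefSeq table for GRCm38.p6 held them, which was the case for 8 members and not for Mup12 and Mup20. They covered 250 bases before to 50 after the start. Mup9 and Mup17, with a 67.4-fold and a 6.75-fold lower level in HFD, had promoters that were 97.96% identical over 294 aligned bases. Mup3 and Mup21, with a 2.65-fold lower level and a log2 ratio of -0.22, had promoters 92.9% identical over 297 bases. Between the first stretch and the end of the span the identity was lower, 76.8% for Mup3 with Mup9 and 74.4% for Mup21 with Mup9. The 100 bases before the RefSeq start are shown for these, minus strand, 5′ to 3′, with the motif TATATAA in capitals.
Mup9 (chr4:60421953-60422052): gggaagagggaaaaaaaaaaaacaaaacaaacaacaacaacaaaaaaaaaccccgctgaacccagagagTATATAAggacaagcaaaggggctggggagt
Mup3 (chr4:62087318-62087417): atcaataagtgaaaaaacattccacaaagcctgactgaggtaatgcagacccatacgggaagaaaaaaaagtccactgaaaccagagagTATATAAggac
Mup21 (chr4:62150842-62150941): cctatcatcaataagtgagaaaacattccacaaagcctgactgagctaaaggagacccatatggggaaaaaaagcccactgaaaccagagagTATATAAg

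The motif TATATAA, searched on both strands and chosen after these sequences had been read, occurred in 7 of the 8 member promoters and in 3.24% of all 32851 promoters of the table. The promoter without it was that of Mup7, whose window ended at letters that lie before the motif in Mup9. Whether Mup7 has the motif is thus not shown. RefSeq starts were not aligned, and the motif began at -31 in Mup9, -11 in Mup3, -8 in Mup21 and 12 in Mup14. The letters TTCNNNGAA, which STAT5 recognises, occurred in 0 of the 8 and in 8.30% of all promoters. Both are matches of letters in this window and say nothing of binding.

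The place of a spot along the liver lobule was read from its own transcripts, because portal and central hepatocytes differ in many genes. Spots with at least 1000 UMIs were ranked within each section by the log2 ratio of 8 pericentral markers (such as Glul and Cyp2e1) to 9 periportal markers (such as Cyp2f2 and Hal), with no Mup gene among them, and split into tertiles. The log2 ratios of HFD over NCD of these markers ran from -2.95 for Cyp1a2 to 0.29 for Lect2 among the pericentral and from -0.92 for Cps1 to 1.63 for Hsd17b13 among the periportal ones. The tertiles held 950 or 951 spots in NCD and 1196 or 1197 in HFD. They are ranges of a score, not places seen in the tissue, and 576 NCD spots and 836 HFD spots lay within 0.25 of a boundary. Median depth differed between them, with 4599 UMIs per spot in the periportal and 7882.5 in the pericentral tertile of NCD, and 24722 and 16805 in those of HFD. The spots of these tertiles, which were set from full counts, were also drawn down to 300 UMIs. The direction was then the same for the summed family and for the sum of the 7 close copies in both sections. A random draw keeps the expected share of a gene in each spot, so whether depth affected the ranking was not tested. Single close copies then had at most 38 UMIs in an outer tertile of HFD.

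Along the lobule the family split into Mup20 and Mup3 on one side and the 7 close copies on the other. The sum stood higher at the periportal end in both sections. It was 27558 CPM in the periportal tertile and 19016 CPM in the pericentral tertile of NCD, a log2 ratio of pericentral over periportal of -0.54 (-0.54 to -0.53). In HFD the levels were 19086 CPM and 10868 CPM, a log2 ratio of -0.81 (-0.82 to -0.81). Mup20 and Mup3 made this direction, and the sum of the 7 close copies had the opposite one in both sections. Of these copies, Mup12, Mup10 and Mup14 were close to level in NCD, as given below.

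Mup20 had the steepest slope toward the portal end. In NCD it stood at 11573 CPM in the periportal, 5667 CPM in the middle and 3878 CPM in the pericentral tertile, 2.98-fold higher at the portal end, and was number 26 of 6976 genes from the most periportal. The off-tissue spots of the NCD capture area held Mup20 at 6252 CPM, and with their mean subtracted the log2 ratio of -1.58 became -3.71. In HFD it stood at 14134, 11287 and 7481 CPM in the same tertiles, 1.89-fold higher at the portal end and number 148 of 10037 genes. Without subtraction of the off-tissue mean, the HFD section thus differed most from NCD away from the portal end. The log2 ratio of HFD over NCD was 0.29 (0.28 to 0.30) in the periportal, 0.99 (0.98 to 1.01) in the middle and 0.95 (0.93 to 0.96) in the pericentral tertile. These ratios were not computed with that mean subtracted, so neither their size nor the direction in the periportal tertile is settled.

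Mup3 had a milder slope, of like size in both sections when no off-tissue mean was subtracted. It stood at 13366 CPM in the periportal and 8647 CPM in the pericentral tertile of NCD, a log2 ratio of -0.63 (-0.64 to -0.62) that became -1.44 with the off-tissue mean subtracted, and at 4790 CPM and 3054 CPM in HFD, a log2 ratio of -0.65 (-0.66 to -0.64). In HFD no alternative put this log2 ratio of Mup3 below -0.84. Without subtraction, Mup3 was 2.79-fold, 2.85-fold and 2.83-fold lower in HFD in the periportal, middle and pericentral tertiles. These folds were not computed with the off-tissue mean subtracted. Mup21 had a log2 ratio of pericentral over periportal of -0.07 (-0.23 to 0.10) in NCD, an interval that includes 0, and of -0.49 (-0.60 to -0.38) in HFD.

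Among the close copies, Mup11 and Mup9 stood far toward the central vein in NCD. Mup11 stood at 264 CPM in the periportal and 2094 CPM in the pericentral tertile, 7.94-fold higher at the central end, and took place 6969 of 6976 genes from the most periportal. Mup9 stood at 158 CPM and 1081 CPM, 6.83-fold higher, at place 6963. Mup7 and Mup17 sloped less, with log2 ratios of 0.81 (0.77 to 0.84) and 0.70 (0.62 to 0.78). Mup12, Mup10 and Mup14 were close to level in NCD, with log2 ratios of 0.39 (0.29 to 0.49), 0.32 (0.25 to 0.40) and 0.13 (0.05 to 0.20), beside a median of 0.13 over all genes. The value of Mup14 turned to -0.21 when the off-tissue mean was subtracted.

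Among the few UMIs of these copies that remained in HFD, the pericentral direction held for all 7. Mup17 had the steepest slope, from 17.6 CPM in the periportal to 91.55 CPM in the pericentral tertile, 5.19-fold, at place 10023 of 10037 genes. Mup11 followed with a log2 ratio of 2.11 (1.91 to 2.32), Mup7 with 1.99 (1.70 to 2.30), Mup9 with 1.87 (1.56 to 2.19), Mup14 with 1.37 (1.18 to 1.56), Mup10 with 1.12 (1.00 to 1.24) and Mup12 with 0.72 (0.54 to 0.89). The slope was steeper than in NCD for Mup7, Mup10, Mup12, Mup14 and Mup17 and milder for Mup9 and Mup11. The intervals of these slopes did not overlap between the sections, but they hold counting error alone. How many of all genes had slopes with separate intervals was not counted. The separation therefore does not set these copies apart from other genes. In the draw to 300 UMIs the intervals of the sections stayed apart for Mup17 and Mup11, overlapped for Mup7, Mup10, Mup12 and Mup14, and had no upper end for Mup9, with 5 pericentral and 0 periportal UMIs in HFD. Mup7 was left with 4 pericentral and 3 periportal UMIs in HFD, a log2 ratio of 0.42 (-2.15 to 3.19) beside 0.69 (0.49 to 0.89) in NCD. Mup12 was left with 7 UMIs in each of these HFD tertiles, a log2 ratio of 0.00 (-1.74 to 1.74) beside 0.10 (-0.44 to 0.63) in NCD. As a mean over single spots, the HFD ratios of Mup7 and Mup12 were 1.87 and 0.71, beside 0.75 and 0.35 in NCD. At 300 UMIs the sum of the 7 had a log2 ratio of 1.38 in NCD and 1.64 (1.08 to 2.23) in HFD.

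In counts, 4 members in NCD and 7 in HFD were at least 1.5-fold higher in the pericentral tertile, against 6.57% and 4.21% of all genes. At the portal end, 2 members in each section were at least 1.5-fold higher, against 2.19% of all genes in NCD and 3.27% in HFD. Spots of 1 section are not replicates, and these counts describe the sections only.

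**Figure D4:**
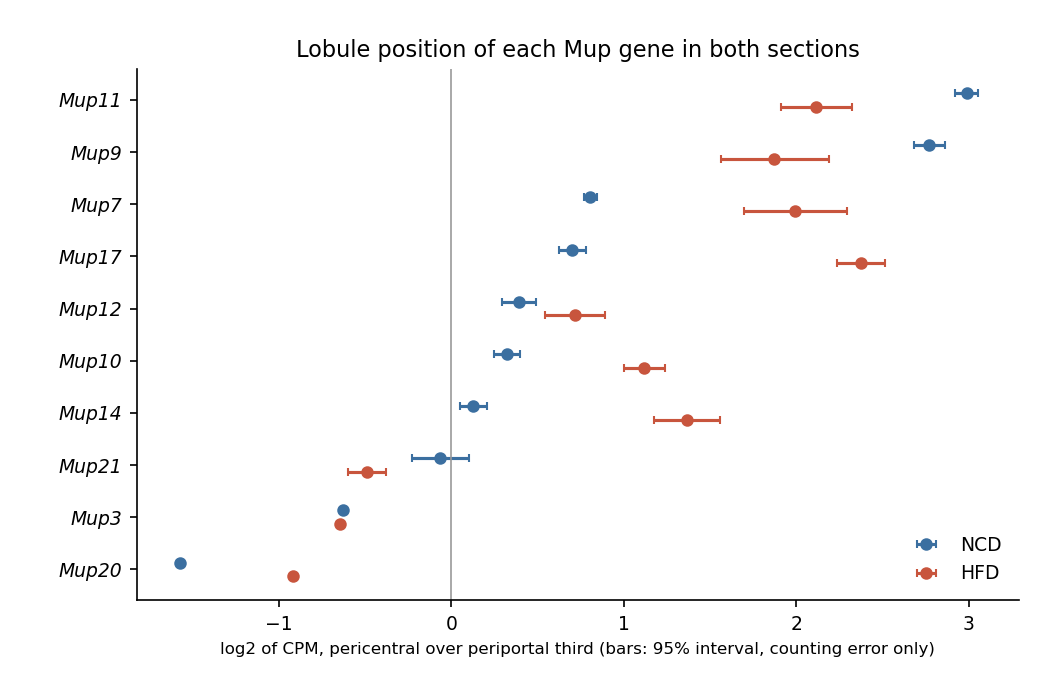
Log2 ratio of the CPM in the pericentral over the periportal tertile for each Mup gene, NCD in blue and HFD in red, with 95% conditional binomial intervals for counting error. Mup20 and Mup3 lie left of 0 in both sections and the 7 close copies lie right of 0, up to 2.99 for Mup11 in NCD.

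In a finer split into 10 bins, the sum of the 7 close copies in NCD ran from 2291 CPM in bin 1, the most periportal, to a highest level of 7075 CPM in bin 9, and was 5171 CPM in bin 10. Mup7 had its highest level of 2313 CPM in bin 8 and stood at 1182 CPM in bin 10. The highest level of Mup11 in NCD was 2393 CPM, in bin 9, and that of Mup9 was 1243 CPM, in the same bin. Of the 7 copies, Mup10 alone was highest in bin 10 of NCD, at 409 CPM beside 399 CPM in bin 9. In HFD the sum of the 7 ran from 68.0 CPM in bin 1 to 300 CPM in bin 9 and 296 CPM in bin 10, where Mup7 and Mup11 had their highest HFD levels of 18.6 CPM and 38.9 CPM. Mup20 ran steadily from 14460 CPM to 3284 CPM over the 10 bins in NCD and from 14945 CPM to 5838 CPM in HFD. The sections thus nearly met at the portal end in levels from which no off-tissue mean was subtracted.

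**Figure D5:**
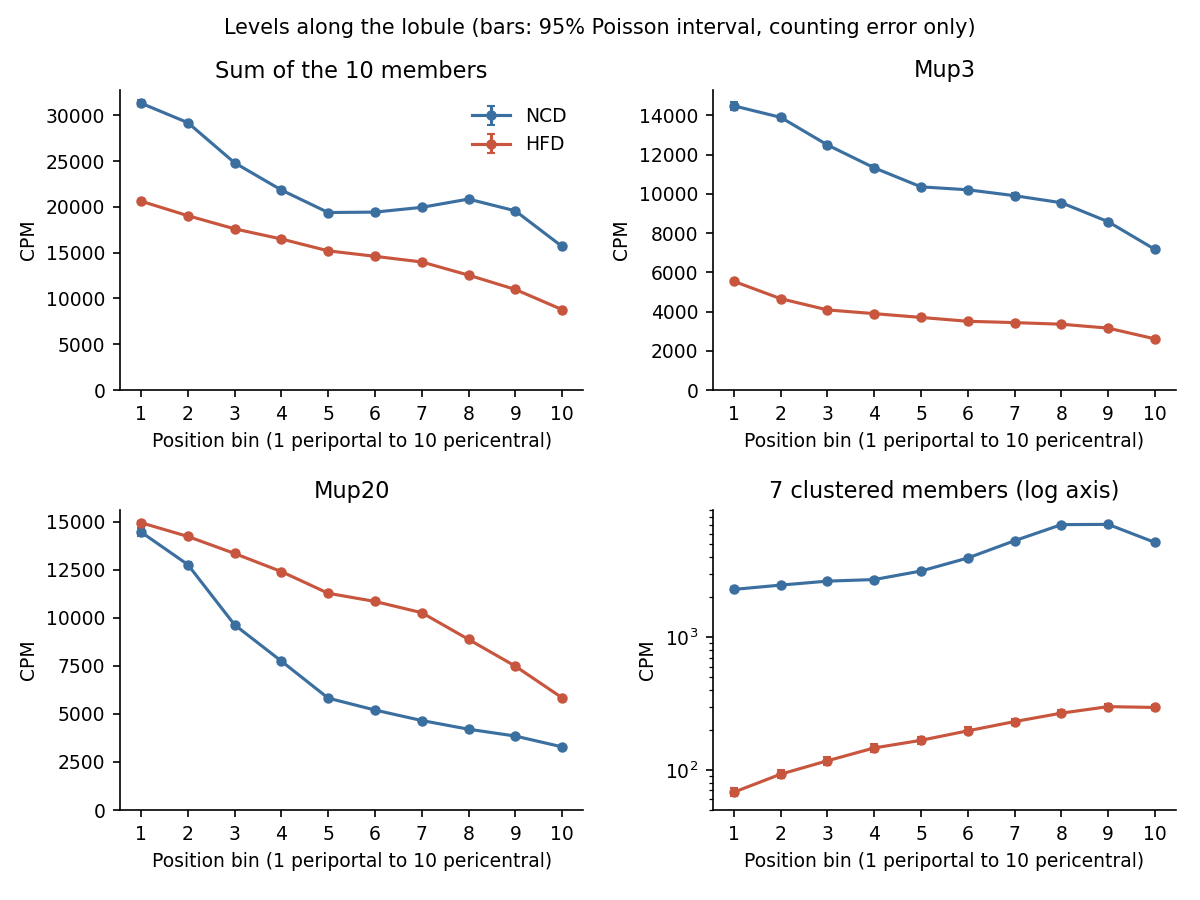
CPM of the summed family, Mup3, Mup20 and the 7 close copies over 10 bins of spots from periportal (1) to pericentral (10), NCD in blue and HFD in red, with 95% Poisson intervals that are mostly smaller than the points; the panel of the close copies has a log axis. Mup20 starts at 14460 CPM in NCD and 14945 CPM in HFD and is steeper in NCD, while the close copies are highest in bin 9 of both sections. Off-tissue means are not subtracted.

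The make-up along the lobule followed from these slopes. In NCD, Mup20 held 42.0% of the family's UMIs in the periportal and 20.4% in the pericentral tertile, and the 7 close copies held 9.25% and 33.8%. In HFD, Mup20 held 74.1% and 68.8%, and the close copies 0.493% and 2.62%. The lower level of the close copies in HFD was present in every tertile, by 27.1-fold in the periportal, 20.1-fold in the middle and 22.5-fold in the pericentral tertile.

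Single spots showed how evenly the transcripts were spread. In NCD spots with at least 1000 UMIs, the family ranged from 2647 to 52604 CPM with a median of 19559 CPM, and no spot lacked it. In HFD the range was 2074 to 37062 CPM around a median of 14116 CPM. Spot-to-spot variation beyond counting error, as a coefficient of variation, was 0.280 for Mup3, 0.665 for Mup20, 0.553 for Mup7, 0.845 for Mup11 and 0.944 for Mup9 in NCD, beside a median of 0.164 over the 707 genes with at least 5000 UMIs. In HFD it was 0.358 for Mup3 and 0.468 for Mup20, beside 0.175 over 1678 genes. A spot can hold several cells, so this spread is one between small areas. Whether sums over spots differed through the number of hepatocytes or through Mup RNA per hepatocyte was not tested. Alb, which encodes serum albumin and is made by the same cells, stood at 56011 CPM in NCD and 57872 CPM in HFD.

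The genes whose levels ran most like the summed family over the 20 bins of both sections were Serpina1b, with a Pearson correlation of 0.97 of log2(CPM + 1), Agxt with 0.96, Hsd11b1 with 0.95, Serpina1a with 0.95 and Igf1 with 0.95. They were followed by Gsta2, Etnppl, Cbs, Ass1 and Vtn, down to 0.93. Of these, Ass1 is one of the periportal markers that ranked the spots. They were the top 10 of 6422 genes with at least 1000 UMIs, and the 20 points share 2 libraries, so the values are a description. The same ranking for the 7 close copies, added after the values were seen, was led by the fatty acid hydroxylase Cyp4a14, Cyp2c54 and Cyp7b1, with 0.99 each. Over the NCD bins alone their correlations were 0.92, 0.87 and 0.94, and over the HFD bins alone 0.99, 0.92 and 0.98. The values over both sections thus also hold the difference between the sections. For Mup20 it was led by Gas2, Atp5g1 and Hsd17b6, with 0.97 each.

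Other genes known to be male-biased in mouse liver stood lower in the HFD section with the close copies. Of 14 such genes with at least 200 UMIs outside the family, 12 were at least 2-fold lower in HFD, against 1.84% of all genes, and their median log2 ratio was -2.25, beside 0.23 over all genes. The lowest was Hsd3b5, a steroid dehydrogenase, at 61.4 CPM in NCD and 0.0832 CPM in HFD, with a log2 ratio of -9.53 (-10.98 to -8.40). The organic anion transporter Slco1a1 stood at 128 CPM and 0.194 CPM, the serpin Serpina1e at 1566 CPM and 118 CPM, and the cytochrome Cyp2d9 at 1253 CPM and 297 CPM. The highest of the list was Cyp2u1, with a log2 ratio of 0.36. Of 7 female-biased genes with at least 200 UMIs, 6 were at least 2-fold higher in HFD, against 9.3% of all genes, and 1, Cyp2c40, was 9.43-fold lower. The list held 16 genes. Cyp2b9, Cyp2b13, Cyp2a4, Cyp2a22 and Hao2 had 0 to 86 UMIs in NCD and reached the minimum through their HFD UMIs. Their higher level was thus in part a condition of entering this count, which is a description only. Cyp2b9 stood at 2.96 CPM in NCD and 166 CPM in HFD, and Cyp2b13 had 0 UMIs in NCD and at least a 196-fold higher level in HFD with a floor of 3 counts over the NCD section. Cyp2a22 stood at 2.31 CPM and 35.0 CPM. The median log2 ratio of the 7 was 5.49, a value that the bound for Cyp2b13 does not alter but that rests on the same minimum.

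Genes of the growth hormone axis, which drives the male pattern of Mup expression, were mixed. Of 10 with at least 200 UMIs, 2 were at least 2-fold lower and 1 at least 2-fold higher, against 1.84% and 9.3% of all genes. Their median log2 ratio was 0.23, beside 0.23 over all genes. The lower ones were the direct STAT5 targets Socs2, at 21.4 CPM in NCD and 3.29 CPM in HFD, and Cish, at 17.4 CPM and 7.72 CPM. Igf1 stood at 617 CPM and 423 CPM. Ghr, the receptor, stood at 252 CPM and 309 CPM, and Stat5b at 18.7 CPM and 28.1 CPM. The gene above was Bcl6, a repressor that competes with STAT5 for its sites, at 2.75 CPM in NCD and 7.93 CPM in HFD, a log2 ratio of 1.53 (1.19 to 1.88).

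Among 13 regulators of hepatocyte genes, 2 were at least 2-fold lower, Onecut1 with a log2 ratio of -1.72 (-2.12 to -1.33) and Foxa1 with -1.07 (-1.29 to -0.85), and none was at least 2-fold higher. Of all genes, 1.84% were lower and 9.3% higher by this fold, shares that also stand beside the other lists of this paragraph. Hnf4a, the central hepatocyte factor, had a log2 ratio of 0.29 and Cebpb, the highest, 0.91. Of 8 other lipocalins with at least 200 UMIs, 1 was at least 2-fold lower and 3 at least 2-fold higher. The lower one was Apom, at 468 CPM in NCD and 233 CPM in HFD. The highest was Lcn2, an acute phase lipocalin, at 7.65 CPM and 169 CPM. Retinol-binding Rbp4 had a log2 ratio of -0.26. Of 12 other secreted hepatocyte proteins, 1 was at least 2-fold lower, Serpina3k at 10124 CPM and 2026 CPM. The highest was Trf, the iron carrier transferrin, with a log2 ratio of 0.79, and the sum of the list had a log2 ratio of 0.08.

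Transcripts of the acute phase and of lipid droplets were mostly higher in HFD. Of 9 acute phase genes, 6 were at least 2-fold higher in HFD, against the same 9.3% of all genes, and their median log2 ratio was 1.52. The highest was Lcn2, given above, and the lowest Apcs, with a log2 ratio of -0.03 (-0.08 to 0.03). Saa1 stood at 107 CPM in NCD and 529 CPM in HFD, and Hp, the hemoglobin-binding haptoglobin, at 1954 CPM and 5130 CPM. Of 7 lipid droplet genes, 4 were at least 2-fold higher, and their median log2 ratio was 1.06. The highest was Cidea, with 3 UMIs in NCD and 1922 in HFD, a log2 ratio of 8.01 (6.46 to 10.29), and the lowest G0s2, an inhibitor of triglyceride lipase, with 0.68. Cidec, which enlarges lipid droplets, stood at 4.10 CPM and 85.0 CPM. Within the HFD section, spots were also ranked by these transcripts in a draw of 1000 UMIs, and the Mup level was read from the remaining UMIs. The upper quartile of spots by acute phase UMIs stood above the lower quartile by 0.35 (0.34 to 0.36) on the log2 scale for the summed family and by 0.44 (0.43 to 0.45) for Mup20, while the close copies had a log2 ratio of -0.67 (-0.74 to -0.60). The median depth of these quartiles was 20033 and 18064 UMIs per spot. Taken within position tertiles, the family's difference was 0.05 in the periportal, 0.10 in the middle and 0.25 in the pericentral tertile. In the same order it was 0.13, 0.15 and 0.33 for Mup20 and -0.30, -0.15 and -0.15 for the close copies, so all 3 differences were smaller within tertiles than over all spots. The quartiles by lipid droplet UMIs differed by -0.15 (-0.16 to -0.15) for the family over all spots and by 0.00, 0.05 and -0.02 within the same tertiles. Alb, outside the family, differed over all spots by 0.22 (0.21 to 0.22) between the acute phase quartiles and by -0.18 (-0.19 to -0.18) between those by lipid droplets. Within the tertiles, Alb differed by -0.02, -0.02 and 0.04 for acute phase and by -0.05, -0.06 and -0.01 for lipid droplets. In NCD the acute phase quartiles differed over all spots by 0.02 for the family, 0.20 for Mup20 and -0.23 for the close copies. Within the NCD tertiles, in the same order, the family differed by -0.06, -0.03 and -0.05. The NCD quartiles by lipid droplet UMIs differed by 0.00 for the family over all spots.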

How the data were processed

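UMI counts per gene and spot were made by the authors with Space Ranger 1.3.1 on build mm10 and deposited without normalization, for all spots of each slide and for those over tissue. The annotation is not given in the sources used here, and 32235 of 32285 gene identifiers were matched to GENCODE M21. Only reads that fit a single gene enter such counts, which lowers the counts of near-identical Mup copies. Spot positions and images were not used here, and one marker list is not reported here.

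Counts of the 1 NCD section (29037988 UMIs over tissue) and the 1 HFD section (72118803) were summed over spots and divided by all UMIs of those spots (CPM). Intervals at the 95% level are Poisson for CPM, Clopper-Pearson for shares and conditional binomial for ratios, and UMIs at this depth make them narrow. Bounds use a floor of 3 counts. Genes were called at 2-fold between sections and 1.5-fold between tertiles. The position score was log2 of pericentral over periportal marker UMIs, each plus 0.5.

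The members, gene lists and tests were chosen with earlier results of these data known. Named were all Mup genes, the flanking genes, the 10 genes most like the family, and of each list the lowest, the highest and up to 4 more with the most UMIs, some of which are left out of the text, with a few others named as examples. Alternatives changed the weight of spots, their minimum UMIs, the total, the markers, the classes, the depth, and free RNA. The work used scipy 1.17.1, numpy 2.4.6, Biopython 1.88, pandas 2.3.3 and matplotlib 3.10.9 under Python 3.11.15, and the calculations were tested on simulated data.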

Additional observations from a re-analysis of the deposited data

Results flagged for a closer look

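UMIs of the Mup genes were also counted in spots off tissue, which were used above only where their mean was subtracted. The 1300 such spots of the NCD capture area held 130228 UMIs of the 10 genes, or 18953 CPM against 21454 CPM over tissue. The 1398 such spots of the HFD capture area held 22011 UMIs, or 10110 CPM against 15550 CPM. Off tissue, Mup20 stood at 6252 CPM on the NCD capture area and 7225 CPM on the HFD one. The 7 close copies stood at 3008 CPM and 163 CPM, so the difference between NCD and HFD had the same direction there. How this RNA reached spots off tissue was not tested.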

How the results depend on the processing

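No paired analysis was possible because each diet had 1 section, so the shared replicate number 1 joins a single sample of each group. The number of members at least 2-fold lower in HFD was 8 under all 8 alternatives, and the 10 members kept the direction of their HFD over NCD ratio in all 80 values computed. The family's ratio of -0.46 was -0.47 in spots with at least 3000 UMIs, -0.49 with a total without mitochondrial genes and the 20 most abundant genes (2 of them members), -0.81 per UMI of secreted hepatocyte proteins, -0.73 after subtraction of the spots off tissue, -0.44 without the 1% of spots richest in the family and -0.49 with spots drawn down to 300 UMIs.

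The pericentral over periportal ratio of the family in NCD, -0.54, was -0.46 as a mean of single spots, -0.51 in spots with at least 3000 UMIs, -0.63 with the reduced total, -0.56 per UMI of secreted proteins, -1.25 after subtraction, -0.47 without the richest spots, -0.42 drawn down, -0.51 without Cyp2e1 and Cyp2f2, -0.51 with second marker lists, -0.75 with outer quintiles and -0.56 with all spots. In HFD, -0.81 became -0.77, -0.85 with the reduced total, -0.87 per UMI of secreted proteins, -0.85 after subtraction, -0.78 without the richest spots, -0.73 drawn down, -0.75 without Cyp2e1 and Cyp2f2, -0.63 with second marker lists and -1.02 with outer quintiles, where -0.77 is the mean of single spots. Single members kept their direction along the lobule in 215 of 217 values. The exceptions in NCD were Mup14, at -0.21 after subtraction, and Mup21, whose interval included 0 and which reached 0.03. After subtraction, Mup9 and Mup11 had no NCD ratio, since their periportal level was not above that off tissue, and Mup9 had no HFD ratio drawn down, with 0 periportal UMIs. Why the values moved was not tested. At 664 UMIs of Mup7 and 591 of Mup9 in HFD, their slopes there are the least precise.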

Other observations

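Both capture areas carry the same 4992 printed barcodes, and 3173 of them lay over tissue in both sections. HFD levels were compared between barcodes with many and with few NCD UMIs of the same gene. At the quartile of these barcodes with the most NCD UMIs of Mup7 the HFD level of Mup7 was 8.30 CPM, and at the quartile with the fewest it was 9.03 CPM. For Mup17 the HFD levels were 38.7 CPM and 50.2 CPM, for Mup3 3989 CPM and 3858 CPM, and for Mup20 12440 CPM and 11176 CPM. The HFD level was higher at the quartile with the most NCD UMIs for Mup3, Mup9, Mup20 and Mup21 and lower for the other members.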
